A study of Mus musculus with 30 samples.

Results

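The subunits of the Polycomb and trithorax complexes were followed through a retinoic acid course in mouse embryonic stem cells. The set holds 42 genes chosen by name: 19 of Polycomb repressive complex 1 (PRC1), 11 of PRC2, 11 of the trithorax group and Asxl1, which belongs to none of these groups. A gene was measured when a probe set carried its symbol and no other, and of several such probe sets the brightest on average across the 30 arrays was taken. By this rule 41 of the 42 genes were measured, out of 18193 genes in all. Rybp, a PRC1 subunit, was not measured, because each of the 2 probe sets that name it names another symbol too. The 41 genes were carried by 103 probe sets, and 32 genes had more than 1.

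The cells were KH2, a mouse embryonic stem cell line grown on feeder fibroblasts, and no other genotype was included. RNA was measured on 30 Affymetrix arrays. There were 6 arrays, lettered A to F, at 12 h and again at 24 h, and 3 at every other time, which were 8 h, 16 h and then 12 h intervals from 36 h to 72 h. Retinoic acid at 0.3 uM is the treatment named for every time after 8 h, while 8 h is labelled baseline with no word on whether the compound was present. Before lysis all cells, the 8 h cells included, were replated on gelatin for 30 minutes, a step described both as keeping the adhered cells and as keeping those in the medium. The labels do not say that arrays of a group came from separate cultures, so the spread that p-values rest on is that between these samples and may be technical.

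Polycomb and trithorax proteins keep developmental genes silent or active through cell division. PRC2 methylates histone H3 on a lysine of its tail through Ezh1 or Ezh2, PRC1 reads that mark through its CBX proteins and adds ubiquitin to a histone through Ring1 or Rnf2, and the trithorax methyltransferases place an opposing, activating mark on histone H3. In embryonic stem cells these marks lie together at many silent developmental genes, the Hox clusters among them, and subunits of both systems are exchanged as cells differentiate.

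Values are deposited log2 intensities, so a difference of 1 is a doubling. A gene was called where the Benjamini-Hochberg adjusted p of limma, a linear model fitted to all 18193 genes, lay below 0.05 (two-sided), and changes carry the standard error (SE) of that fit. Array medians lay between 6.34 and 6.39, and means of the 41 genes over all arrays between 6.82 and 13.52. The arrays fell into 2 sets by a difference between spike-in controls, of 0.99 to 1.07 in set 1 and of 1.34 to 1.63 in set 2. Set 1 holds 12 arrays, namely 8 h, 16 h and arrays A to C of 12 h and 24 h, and set 2 holds the other 18, namely arrays D to F of 12 h and 24 h and all later times. The labels name no such set. Because 8 h and 72 h lie in different sets, which are linked only by the 12 h and 24 h arrays, the course is described first by 2 steps that each stay within a set and share no array. The early step is 24 h (arrays A to C) against 8 h, in set 1, and the late step is 72 h against 24 h (arrays D to F), in set 2.

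The genes with the largest changes were PRC1 subunits, and 5 genes differed by more than 1 between 72 h and 8 h: Bmi1, Phc2, Yaf2 and Cbx2 upward and Phc1 downward. For the 3 of them that RefSeq's promoter table (GRCm38.p6) holds, the 250 bases before each annotated start are shown, as the DNA that lies ahead of the genes with the largest changes. Capitals mark the retinoic acid receptor hexamers AGGTCA and AGTTCA and the E-box CACGTG, each searched on both strands. Bmi1 has 1 window, at chr2:18676768-18677017 on the + strand. Phc2 has 3, at chr4:128654452-128654701, chr4:128688488-128688737 and chr4:128727321-128727570, all on the + strand. Phc1 has 1, at chr6:122340228-122340477 on the - strand.
Bmi1: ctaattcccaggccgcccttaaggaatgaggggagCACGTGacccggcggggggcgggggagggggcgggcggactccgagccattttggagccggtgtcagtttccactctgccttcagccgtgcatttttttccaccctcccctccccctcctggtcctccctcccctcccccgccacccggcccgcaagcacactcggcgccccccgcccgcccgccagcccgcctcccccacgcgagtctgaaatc
Phc2 first: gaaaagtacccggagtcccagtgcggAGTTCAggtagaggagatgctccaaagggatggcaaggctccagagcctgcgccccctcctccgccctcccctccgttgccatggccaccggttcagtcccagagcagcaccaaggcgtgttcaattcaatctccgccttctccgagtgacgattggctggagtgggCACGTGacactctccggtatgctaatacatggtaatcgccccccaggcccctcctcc
Phc2 second: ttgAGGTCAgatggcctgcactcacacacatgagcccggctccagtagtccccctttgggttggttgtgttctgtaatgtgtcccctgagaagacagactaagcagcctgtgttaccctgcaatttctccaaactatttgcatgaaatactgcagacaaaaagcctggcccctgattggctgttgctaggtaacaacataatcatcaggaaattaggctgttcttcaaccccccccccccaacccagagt
Phc2 last: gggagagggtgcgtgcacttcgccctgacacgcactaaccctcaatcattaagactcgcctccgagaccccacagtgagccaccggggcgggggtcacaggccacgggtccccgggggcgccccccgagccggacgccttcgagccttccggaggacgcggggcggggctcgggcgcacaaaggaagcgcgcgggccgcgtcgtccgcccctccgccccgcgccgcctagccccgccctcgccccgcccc
Phc1: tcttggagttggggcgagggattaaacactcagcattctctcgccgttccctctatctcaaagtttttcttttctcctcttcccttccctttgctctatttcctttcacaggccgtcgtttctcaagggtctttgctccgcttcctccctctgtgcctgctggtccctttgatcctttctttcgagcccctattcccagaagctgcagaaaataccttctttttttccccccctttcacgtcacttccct
The Bmi1 window and the first Phc2 window each hold the E-box, the first and second Phc2 windows hold 1 hexamer each, and none of the motifs is in the last Phc2 window or the Phc1 window. The windows differ in CpG dinucleotides, with 21 in that of Bmi1, 13, 1 and 34 in those of Phc2 and 8 in that of Phc1. Over the 51 windows of the 35 measured genes found in the table the median was 20 CpG dinucleotides, against 6 over all 32851 windows of this length. AGGTCA was in 11.8% of the 51 windows and 14% of all, AGTTCA in 7.84% and 11.8%, and CACGTG in 15.7% and 6.02%. A match of letters is a description of the sequence and says nothing about binding.

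In the early step 11 of the 41 genes rose and 11 fell. The count of falls rested on single arrays, with 10 genes higher and 5 lower without 8 h array C and 9 higher and 6 lower without 24 h array C. The 22 genes called with all arrays are 53.7% of the set, where 39.3% of all genes were called, 23.5% higher and 15.8% lower. In the late step 14 rose and 14 fell, 68.3% of the set, where 46.5% of all genes were called, 21.7% higher and 24.8% lower. The median change over the set was -0.021 in the early step and -0.057 in the late step, close to the medians of -0.018 and -0.047 over all genes. In both steps the later arrays of every called gene of the set lay beyond all the earlier ones. Over all genes this held for most calls too, 4209 of 4277 higher and 2758 of 2877 lower in the early step. In the late step it held for 3790 of 3942 higher and 4360 of 4512 lower. As shares of all genes tested, these are 23.1% upward and 15.2% downward in the early step and 20.8% and 24% in the late step. By complex, 9 of 18 PRC1 genes were called higher and 4 lower in the early step and 10 and 4 in the late step. Of 11 PRC2 genes 1 was higher and 4 lower and then 3 and 4, and of 11 trithorax genes 1 and 2 and then 1 and 5. Differences between the complexes were not tested.

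Over the whole course, the moderated F test of limma across the 8 times called 33 of the 41 genes, 80.5%, where 75.9% of all genes were called. The 8 genes it did not call were Ring1, Rnf2, Pcgf5, Rbbp4, Phf19, Wdr5, Kdm6a and Kdm6b. Set directly against 8 h, 72 h gave 12 genes higher and 18 lower, 73.2% of the set, where 58.3% of all genes were called, 23.7% higher and 34.6% lower, and the median change was -0.153 in the set and -0.129 over all genes. With the array set as a term of the model, 23 of these 30 calls were kept, those of Bmi1, Phc1, Phc2, Yaf2 and Cbx2 among them, 6 were lost and that of Cbx6 turned. That model also gained 5 calls, those of Ring1, Rnf2, Pcgf5, Kdm2b and Kdm6a. The comparison at 12 h called 2 genes higher, Yaf2 and Cbx2, and 0 lower, where limma called 4.95% of all genes, 3.47% higher and 1.48% lower; at an unadjusted p below 0.05, 7 genes of the set were higher and 5 lower. Within set 1, arrays A to C at 12 h called neither Yaf2, at 0.23 ± 0.089 (limma adjusted p = 0.0688), nor Cbx2, at 0.18 ± 0.064 (adjusted p = 0.0521), and at that time arrays D to F stood above A to C by 0.47 for Yaf2 and 0.25 for Cbx2. At 24 h, with all 6 arrays against 8 h, 10 genes were higher and 11 lower, where 32.1% of all genes were called, 17.3% higher and 14.9% lower; the counts were 6 and 7 without 8 h array B and 8 and 7 without 8 h array C. The 16 h arrays, all in set 1, gave 11 higher and 8 lower against 8 h, where 43.5% of all genes were called, 25.6% higher and 17.9% lower. All these comparisons share the 8 h arrays.

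Of the 41 genes, 8 rose in both the early and the late step (Bmi1, Phc2, Phc3, Yaf2, Cbx2, Cbx8, Pcgf3 and Rbbp7) and 7 fell in both (Phc1, L3mbtl2, Eed, Jarid2, Rbbp5, Dpy30 and Asxl1). All of those that rose except Rbbp7 are PRC1 genes. Over all genes, 18.2% were called in the same direction in both steps. Called in opposite directions were Cbx6 and Aebp2, which fell and then rose, and Ash2l, which rose and then fell. Called in neither step were Ezh2, Phf19, Rbbp4, Cbx7, Kdm6b, Kmt2b, Kmt2c, Kmt2d and Men1.

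**Figure D1:**
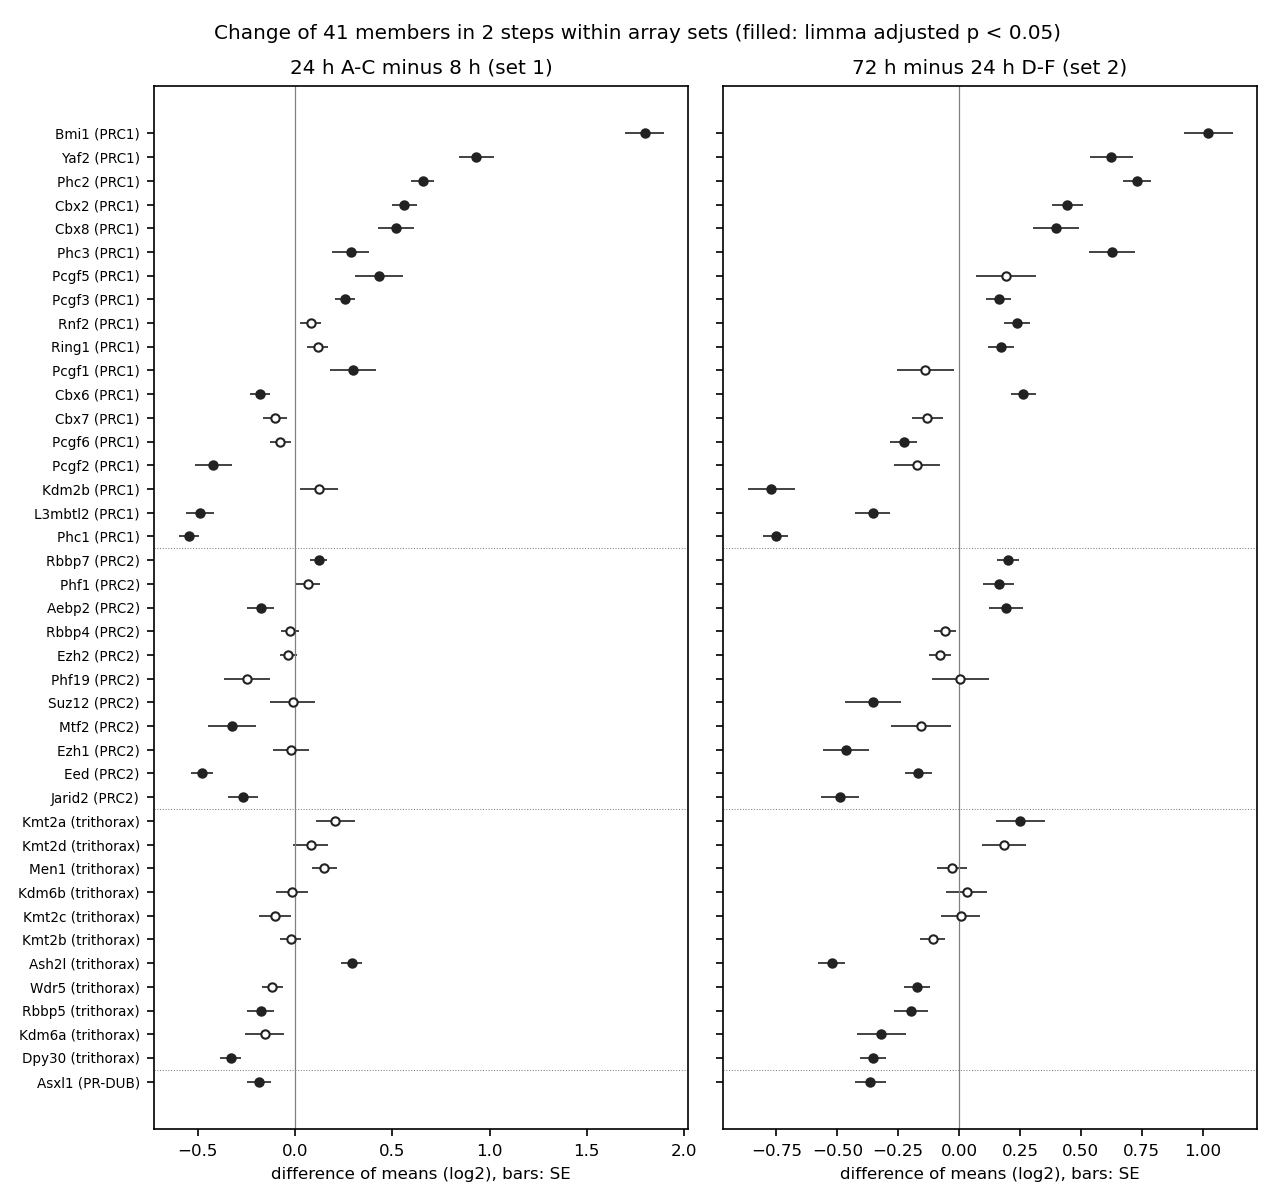
Change of each of the 41 genes (log2, horizontal axis; bars: SE) in the early step, 24 h arrays A to C minus 8 h (left), and the late step, 72 h minus 24 h arrays D to F (right), grouped by complex. Filled points were called by limma at an adjusted p below 0.05; Bmi1 stands farthest to the right in both panels, at 1.80 and 1.02, and the 2 panels have different axis ranges.

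Markers of several cell types changed over the same hours, and the part of cell composition in the results below was not tested. In bulk RNA, fewer cells of a type and less RNA per cell cannot be told apart. The mean of 10 embryonic stem cell markers fell from between 12.32 and 12.42 on the 8 h arrays to between 11.55 and 11.74 at 24 h (A to C), with 8 of 10 called lower, and from between 11.48 and 11.68 at 24 h (D to F) to between 10.58 and 10.91 at 72 h, with 7 called lower. Of 12 fibroblast markers, which feeder cells carry, 11 were measured; limma called 0 of them in the early step, also with 0 at an unadjusted p below 0.05, and 10 of 11 higher in the late step. Their mean lay between 7.51 and 7.82 at 8 h, between 7.98 and 8.04 at 24 h (A to C), between 7.64 and 8.51 at 24 h (D to F) and between 9.73 and 10.69 at 72 h. The 6 primitive endoderm markers rose from a mean between 6.87 and 7.03 at 8 h to one between 9.18 and 9.56 at 72 h, with 5 called higher in the early step and 6 in the late step. Of 5 neural progenitor markers measured, 3 were higher and 1 lower in each step. No marker of these lists was at 0, and the lowest mean was that of Lum, a fibroblast gene, at 5.02 at 24 h (D to F).

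Among the polyhomeotic subunits, which link PRC1 complexes to one another, Phc1 fell while Phc2 rose. Phc1 measured 12.52, 12.54 and 12.52 at 8 h and 12.01, 11.89 and 12.03 at 24 h (A to C). Set 2 gave 12.04, 12.04 and 11.96 at 24 h and 11.18, 11.30 and 11.30 at 72 h. The 24 h arrays of both sets lay below all 8 h arrays, and the 72 h arrays below all 24 h arrays. Phc1 fell by 0.55 ± 0.051 in the early step (limma adjusted p = 7.7e-09) and by 0.75 ± 0.051 in the late step (adjusted p = 1.21e-11). Its lowest mean was 11.05, at 60 h, and its means of 12.67 (set 1) and 12.63 (set 2) at 12 h stood above those of all other times.

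Phc2 measured 9.73, 9.71 and 9.64 at 8 h and 10.25, 10.44 and 10.35 at 24 h (A to C). The set 2 arrays gave 10.75, 10.74 and 10.81 at 24 h and 11.49, 11.49 and 11.51 at 72 h. These values do not overlap between times, and the 24 h arrays of set 2 lay above those of set 1. Phc2 rose by 0.66 ± 0.058 in the early step (limma adjusted p = 3.09e-09) and by 0.73 ± 0.058 in the late step (adjusted p = 1.82e-10), and its other probe set rose by 0.56 and 0.68. Its mean climbed at each time of set 2, from 10.02 at 12 h to 11.50 at 72 h. Phc3, the remaining polyhomeotic gene, measured 7.83, 7.83 and 7.80 at 8 h and 8.16, 8.10 and 8.05 at 24 h (A to C), a rise of 0.29 ± 0.093 (limma adjusted p = 0.0174) that was not called without 24 h array A, or with quantile normalisation, which gave 0.17. In the late step Phc3 went from 7.88, 7.78 and 7.80 to 8.44, 8.36 and 8.55, a rise of 0.63 ± 0.093 (limma adjusted p = 4.46e-06). Set 1 and set 2 did not give one course for Phc3: its mean was 8.12 and 8.11 at 12 h and 24 h in set 1 and 7.92 and 7.82 in set 2.

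The PCGF proteins pair with Ring1 or Rnf2, and each defines a form of PRC1. Bmi1, a PCGF protein of the canonical, CBX-bearing form, had the largest rise of the set. It measured 7.93, 7.91 and 7.72 at 8 h, 8.22, 8.35 and 8.33 at 16 h and 9.61, 9.76 and 9.58 at 24 h (A to C). In set 2 the arrays gave 8.35, 8.35 and 8.54 at 12 h, 8.99, 9.18 and 9.06 at 24 h and 9.99, 10.16 and 10.15 at 72 h. Within each set, every group named here lay above the ones named before it. Bmi1 rose by 1.80 ± 0.10 in the early step, 3.47-fold (limma adjusted p = 1.44e-12), and by 1.02 ± 0.10 in the late step, 2.03-fold (adjusted p = 7.24e-09). Its other probe set rose by 2.13 and 1.29. The sets disagree on how fast it rose: the mean went from 8.02 at 12 h to 9.65 at 24 h in set 1 and from 8.41 to 9.07 in set 2, and the difference between these changes was -0.97 ± 0.14 (limma adjusted p = 3.34e-05), a contrast in which 19.1% of all genes were called.

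Pcgf2, the close relative of Bmi1 in canonical PRC1, moved the other way early on. It measured 8.92, 9.25 and 9.23 at 8 h and 8.66, 8.87 and 8.62 at 24 h (A to C), with no overlap. That was a fall of 0.42 ± 0.095 (limma adjusted p = 0.00094), while its other probe set gave -0.057 and was not called. In the late step its arrays went from 9.01, 9.02 and 8.98 to 8.92, 8.82 and 8.75, a difference of -0.17 ± 0.095 that was not called (limma adjusted p = 0.147).

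Of the PCGF proteins of variant PRC1, which lacks CBX proteins, Pcgf3 rose in both steps and Pcgf1 and Pcgf5 in the early one. Pcgf3 measured 10.35, 10.32 and 10.37 at 8 h and 10.53, 10.69 and 10.60 at 24 h (A to C), all above 8 h, and rose by 0.26 ± 0.051 (limma adjusted p = 0.000253). Its late rise was 0.16 ± 0.051 (adjusted p = 0.0109), not called without 24 h array F or 72 h array C, and the mean of its 3 probe sets gave -0.027 and -0.014 in the 2 steps, the opposite direction. Pcgf1, the partner of Kdm2b, stood at a mean of 8.35 at 8 h, 9.06 at 16 h and 8.65 at 24 h (A to C). The rise at 24 h was 0.30 ± 0.12 (limma adjusted p = 0.0469) and was lost whichever of the 6 arrays was left out, and the rise at 16 h was 0.71 ± 0.12 (adjusted p = 2.34e-05). Pcgf5 rose by 0.43 ± 0.12 in the early step, from 9.89, 9.92 and 9.87 to 10.43, 10.23 and 10.31 (limma adjusted p = 0.00637). Neither of its 2 other probe sets was called, at 0.27 and -0.075, and the mean of its probe sets gave 0.21 and was not called. Pcgf1 and Pcgf5 share a gap between the sets, with 24 h means of 8.28 and 9.81 in set 2, below their means of 8.65 and 10.32 in set 1. Pcgf6, which works with L3mbtl2 in embryonic stem cells, was not called in the early step, at 11.65, 11.75 and 11.68 at 8 h and 11.68, 11.59 and 11.60 at 24 h, with overlap. It fell in the late step from 11.28, 11.37 and 11.33 to 11.02, 11.20 and 11.07, by 0.23 ± 0.054 (limma adjusted p = 0.00116).

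The CBX proteins are the chromodomain subunits that read the PRC2 mark. Cbx2 measured 8.80, 8.76 and 8.79 at 8 h and 9.32, 9.41 and 9.31 at 24 h (A to C). It went on in set 2 from 9.62, 9.61 and 9.63 at 24 h to 10.04, 10.07 and 10.08 at 72 h, with no overlap in either step. Cbx2 rose by 0.56 ± 0.064 early (limma adjusted p = 1.67e-07) and by 0.44 ± 0.064 late (adjusted p = 2.8e-06). Its mean was 10.07 at 48 h and 10.06 at 72 h. Cbx8 lay close to the array medians, at 6.45, 6.19 and 6.40 at 8 h and 6.78, 6.96 and 6.85 at 24 h (A to C). On the set 2 arrays it measured 6.89, 6.87 and 6.80 at 24 h and 7.33, 7.23 and 7.19 at 72 h, above all 24 h arrays. Its rises were 0.52 ± 0.093 (limma adjusted p = 8.6e-05) and 0.40 ± 0.093 (adjusted p = 0.000979). For both genes the rise rests on 1 probe set: the other probe set of Cbx2, with a mean of 4.28 over all arrays, gave 0.029 and -0.075 in the 2 steps, and that of Cbx8, with a mean of 5.20, gave -0.24 and 0.033. Averaged over probe sets, Cbx2 gave 0.30 and 0.18, both called, and Cbx8 0.14, not called, and 0.22, called.

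Cbx7, the CBX protein that prevails in embryonic stem cells, declined slowly and in neither step far enough to be called. It measured 10.92, 10.97 and 11.01 at 8 h and 10.52, 10.70 and 10.44 at 72 h, all lower. The difference of -0.42 ± 0.074 between these times was called (limma adjusted p = 3.33e-05), and the early and late steps gave -0.10 and -0.13. Cbx6 fell and then rose. It measured 9.80, 9.76 and 9.90 at 8 h and 9.69, 9.66 and 9.57 at 24 h (A to C), a fall of 0.18 ± 0.051 (limma adjusted p = 0.0069) that was lost without 8 h array C or 24 h array C. Its late rise was 0.26 ± 0.051, from 9.35, 9.33 and 9.27 to 9.54, 9.61 and 9.61 (limma adjusted p = 0.00013). Set directly against 8 h it was 0.24 lower at 72 h, but the sum of the 2 steps was 0.085, so the sign depends on how the sets are joined.

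**Figure D2:**
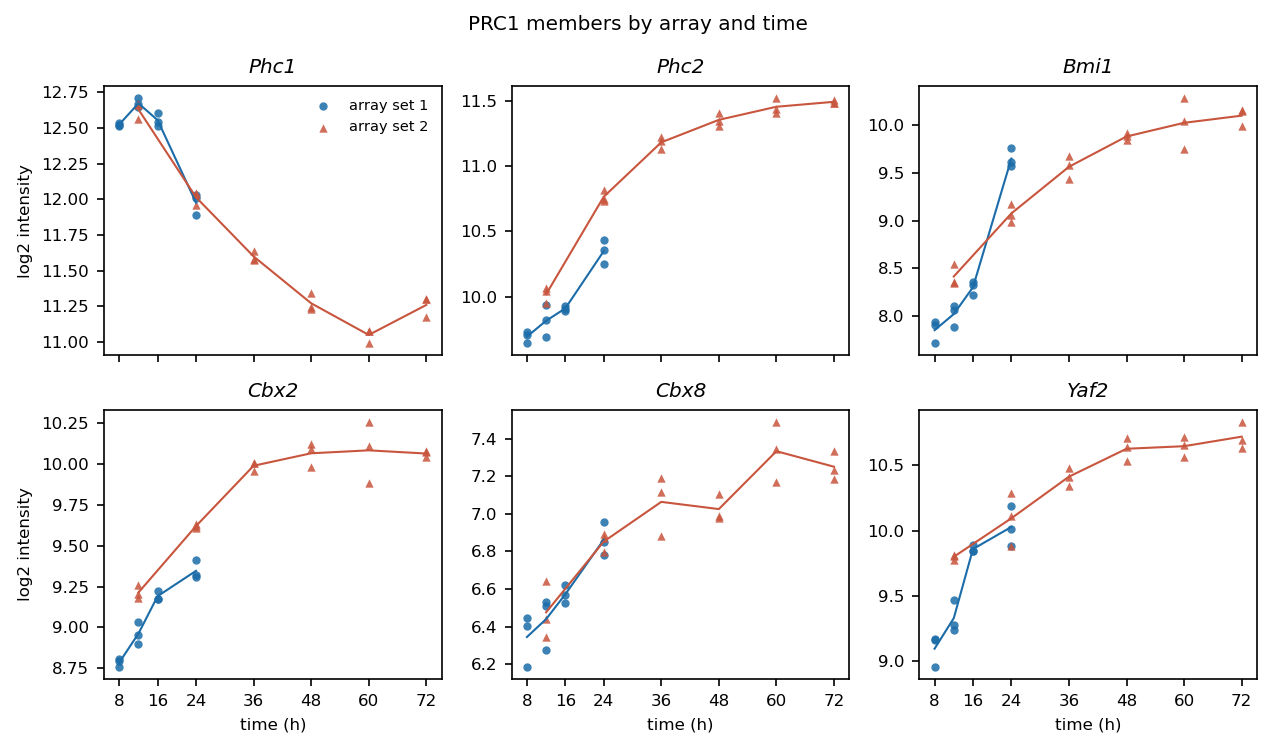
Log2 intensity of 6 PRC1 genes on each array (points) against time in hours, with circles for array set 1 and triangles for array set 2; lines join the means of each set. Phc1 fell from a mean of 12.52 at 8 h to 11.26 at 72 h, while Phc2, Bmi1, Cbx2, Cbx8 and Yaf2 rose, and at 24 h Bmi1 was higher in set 1 and Phc2 in set 2.

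The catalytic subunits Ring1 and Rnf2, which carry the ubiquitin ligase activity, stayed within narrow ranges on the probe sets taken. Ring1 lay between 8.12 and 8.43 on all 30 arrays and Rnf2 between 12.18 and 12.53. Neither was called in the early step, at 0.12 ± 0.054 for Ring1 (limma adjusted p = 0.0898) and 0.080 ± 0.054 for Rnf2 (adjusted p = 0.25). Both were called higher in the late step. Ring1 went from 8.18, 8.14 and 8.15 to 8.29, 8.40 and 8.30, a rise of 0.17 ± 0.054 (limma adjusted p = 0.0104) that was lost without 72 h array B. Rnf2 went from 12.22, 12.29 and 12.18 to 12.53, 12.47 and 12.41, a rise of 0.24 ± 0.054 (limma adjusted p = 0.00072). The mean of its 5 probe sets gave 0.055 in the late step and was not called, but was called lower in the early step. In the early step, probe sets of Rnf2 with means of 6.28 and 6.03 over all arrays gave -0.607 and -0.425, both called. Those with means of 11.40 and 6.00 gave 0.013 and -0.091 and were not called.

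Among the subunits of variant PRC1, Yaf2 rose and L3mbtl2 fell in both steps, while Kdm2b had its maximum in between. Yaf2, the homologue of Rybp, measured 9.16, 9.17 and 8.96 at 8 h and 9.88, 10.19 and 10.02 at 24 h (A to C). It measured 9.88, 10.29 and 10.11 at 24 h in set 2 and 10.83, 10.69 and 10.64 at 72 h, above all 24 h arrays. Yaf2 rose by 0.93 ± 0.089 (limma adjusted p = 1.14e-08) and by 0.63 ± 0.089 (adjusted p = 2.52e-06), and its other probe set by 0.92 and 0.65. Already at 16 h it stood 0.76 above 8 h. L3mbtl2, the partner of Pcgf6, measured 9.92, 10.01 and 10.01 at 8 h and 9.57, 9.43 and 9.48 at 24 h (A to C). It then went from 9.64, 9.43 and 9.51 to 9.09, 9.26 and 9.18 at 72 h. These groups do not overlap, and the falls were 0.49 ± 0.072 (limma adjusted p = 7.21e-06) and 0.36 ± 0.072 (adjusted p = 0.000231).

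Kdm2b brings variant PRC1 to unmethylated CpG islands. In set 1 it measured 11.51, 11.51 and 11.50 at 8 h and 11.60, 11.59 and 11.70 at 24 h, a difference of 0.12 ± 0.097 that was not called (limma adjusted p = 0.342). In set 2 it measured 12.10, 12.00 and 12.27 at 24 h and 11.38, 11.28 and 11.39 at 72 h. This fall of 0.77 ± 0.097 was the largest of the late step (limma adjusted p = 3.84e-07), and the other probe set fell by 0.59. At 24 h the set 2 arrays lay 0.49 ± 0.097 above those of set 1 (limma adjusted p = 0.000274), so at 72 h the gene was only 0.16 below 8 h, which was not called. Kdm2b was called lower at 72 h with the array set as a term of the model, and as the sum of the early and late steps.

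Of the 11 PRC2 genes, 5 were called in the early step, where 39.3% of all genes were, and 7 in the late step, where 46.5% were. The core enzyme Ezh2 lay between 12.10 and 12.52 on all 30 arrays. It was called higher at 16 h, at 12.49, 12.52 and 12.52 against 12.14, 12.14 and 12.16 at 8 h, a rise of 0.36 ± 0.044 (limma adjusted p = 3.5e-07), and was back at 12.10, 12.13 and 12.10 at 24 h (A to C). Neither step was called for Ezh2, at -0.036 ± 0.044 (limma adjusted p = 0.541) and -0.078 ± 0.044 (adjusted p = 0.159). Ezh1, the second and less active enzyme, had a like maximum at 16 h, with 9.47, 9.60 and 9.39 against 8.81, 8.76 and 8.80 at 8 h, a rise of 0.70 ± 0.094 (limma adjusted p = 1.36e-06). At 24 h (A to C) it was back at 8.84, 8.72 and 8.75. The set 2 arrays gave 8.47, 8.56 and 8.42 at 24 h and 7.97, 7.98 and 8.12 at 72 h, with no overlap, a fall of 0.46 ± 0.094 (limma adjusted p = 0.000215). Ezh1 was not called in the early step, at -0.021 ± 0.094 (limma adjusted p = 0.878), but the mean of its 4 probe sets gave -0.26 there and was called. The others of these probe sets were dim, with means of 6.21, 4.52 and 4.33 over all arrays against 8.60 for the one taken. Without probe sets of the types that can match several transcripts, the one at 4.52 stood for Ezh1. It lay below the lower quartile of each array (4.73 to 4.85). It gave -0.33 in the early step, which was called, and -0.22 in the late step, which was not. The direct difference between 72 h and 8 h was -0.77 ± 0.18 (limma adjusted p = 0.000756), and it shrank to -0.26 and was not called with the array set as a term of the model.

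Eed, the subunit that binds the methylated histone tail, measured 12.16, 12.24 and 12.26 at 8 h and 11.74, 11.72 and 11.77 at 24 h (A to C). Set 2 gave 12.05, 12.05 and 11.95 at 24 h and 11.86, 11.85 and 11.83 at 72 h. Both pairs of groups are apart, and Eed fell by 0.48 ± 0.056 (limma adjusted p = 2.7e-07) and by 0.17 ± 0.056 (adjusted p = 0.0157), the latter not called without 24 h array D or E. Its other probe set, with a mean of 4.29 over all arrays, rose by 0.47 in the early step, in the opposite direction, and the mean of the 2 gave -0.002 and was not called. Suz12, the scaffold of the complex, was not called in the early step, at 11.73, 11.83 and 11.97 at 8 h and 11.82, 11.81 and 11.87 at 24 h, with overlap. It fell in the late step from 11.74, 11.77 and 11.57 to 11.46, 11.46 and 11.10, by 0.35 ± 0.12 (limma adjusted p = 0.0142), a call lost without 24 h array E or 72 h array C. Without 72 h array C the fall was 0.23. Of its 5 other probe sets, 3 were called lower in that step.

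The histone-binding subunits Rbbp4 and Rbbp7 also serve other chromatin complexes. On the probe set taken, Rbbp4 lay between 13.43 and 13.64 on all arrays and was called in neither step. None of its other probe sets was called in a step either. At 72 h against 8 h, those with means of 11.24 and 10.01 over all arrays were called lower, at -0.54 and -0.63. The one with a mean of 8.95 gave 0.35 there and was not called. Rbbp7 measured 13.32, 13.35 and 13.31 at 8 h and 13.46, 13.40 and 13.49 at 24 h (A to C), then 13.50, 13.48 and 13.42 at 24 h and 13.67, 13.70 and 13.64 at 72 h in set 2. Each later group was above the earlier one, with rises of 0.12 ± 0.044 (limma adjusted p = 0.0305, lost without array A or C of either time) and 0.20 ± 0.044 (adjusted p = 0.000512). The other probe set of Rbbp7, with a mean of 13.22 over all arrays, gave 0.087 and 0.11 and was called in neither step.

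Of the accessory subunits that guide PRC2 to chromatin, Jarid2 had the largest late fall. It measured 12.91, 12.94 and 13.09 at 8 h, 12.29, 12.29 and 12.28 at 16 h and 12.65, 12.74 and 12.74 at 24 h (A to C), so that 16 h lay below both other times. In set 2 it measured 12.84, 12.69 and 12.62 at 24 h and 12.28, 12.28 and 12.13 at 72 h, without overlap. Jarid2 fell by 0.27 ± 0.077 (limma adjusted p = 0.00713, lost without 8 h array C) and by 0.49 ± 0.077 (adjusted p = 8.98e-06), and both its other probe sets fell in each step. Mtf2, a Polycomb-like protein that binds CpG-rich DNA, measured 12.84, 12.89 and 12.88 at 8 h and 12.53, 12.57 and 12.54 at 24 h (A to C), all lower. This fall of 0.32 ± 0.12 (limma adjusted p = 0.0399) was lost whichever of the 6 arrays was left out. Its late difference was -0.16 ± 0.12 and was not called (limma adjusted p = 0.328). Of the other Polycomb-like proteins, Phf1 rose by 0.16 ± 0.064 in the late step (limma adjusted p = 0.0414), a call lost in 4 of 6 leave-one-out fits, those without 24 h array D or F or 72 h array B or C. Phf19, with arrays between 6.60 and 7.26, was called in neither step. The other probe set of Phf19, with a mean of 6.51 over all arrays, gave 0.003 in the early step. It was called lower in the late step, at -0.29, and at 72 h against 8 h, at -0.58.

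Aebp2, which joins Jarid2 in one form of PRC2, fell and then rose. It measured 10.92, 10.93 and 10.96 at 8 h and 10.76, 10.81 and 10.70 at 24 h (A to C), a fall of 0.18 ± 0.070 (limma adjusted p = 0.047) lost whichever array was left out. All 4 of its other probe sets were called lower in that step. It then rose by 0.19 ± 0.070 in the late step (limma adjusted p = 0.0279), to 10.92, 11.05 and 11.01, where none of the others was called higher and their changes ran from -0.29 to 0.069. That call was lost without 24 h array D or F or 72 h array B or C.

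**Figure D3:**
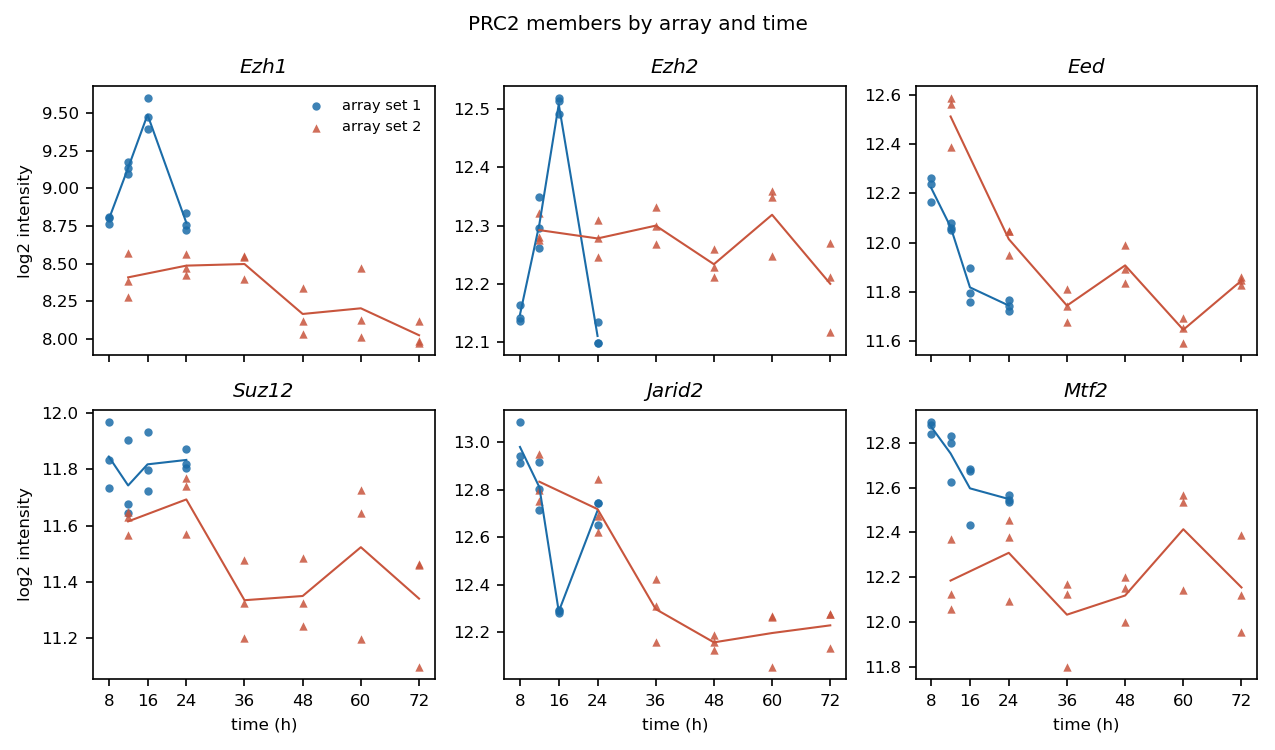
Log2 intensity of 6 PRC2 genes on each array (points) against time in hours, with circles for array set 1 and triangles for array set 2; lines join the means of each set. Ezh1 and Ezh2 stood highest at 16 h, at means of 9.49 and 12.51, and Jarid2 at its lowest of set 1 at 16 h, at 12.29; Ezh1 and Mtf2 were lower in set 2 than in set 1 at 12 h.

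In the trithorax group most calls fell on the shared subunits. Wdr5, Rbbp5, Ash2l and Dpy30 form the core that activates all methyltransferases of this family. Dpy30 measured 12.44, 12.43 and 12.43 at 8 h and 12.14, 12.03 and 12.13 at 24 h (A to C). It went from 12.12, 12.14 and 12.05 at 24 h to 11.70, 11.83 and 11.73 at 72 h in set 2. All later arrays were lower in each step, and Dpy30 fell by 0.33 ± 0.054 (limma adjusted p = 2.24e-05) and by 0.35 ± 0.054 (adjusted p = 6.26e-06). Its 24 h means were 12.10 in set 1 and 12.11 in set 2. Rbbp5 fell by 0.18 ± 0.070 in the early step, from 11.40, 11.42 and 11.53 to 11.36, 11.14 and 11.32 (limma adjusted p = 0.0456), a call lost in 5 of 6 leave-one-out fits, all but the one without 24 h array A, and down to 0.11 without 24 h array B. Its late fall was 0.20 ± 0.070, from 11.01, 11.04 and 10.89 to 10.71, 10.85 and 10.79 (limma adjusted p = 0.0217), lost without 24 h array D or E or 72 h array A.

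Ash2l rose first and then fell. It measured 12.49, 12.53 and 12.40 at 8 h, 12.86, 12.89 and 12.96 at 16 h and 12.74, 12.79 and 12.75 at 24 h (A to C). Its set 2 values were 12.58, 12.65 and 12.65 at 24 h and 12.07, 12.15 and 12.09 at 72 h. Its mean was highest at 16 h, at 12.90, and lowest at 60 h and 72 h, at 12.08 and 12.10. The early rise was 0.29 ± 0.056 (limma adjusted p = 0.000172) and the late fall 0.52 ± 0.056 (adjusted p = 2.78e-08). Its other probe set gave -0.054 and was not called in the early step and fell by 0.26 in the late one, and the mean of both gave 0.12 in the early step and was not called. Wdr5 lay between 11.00 and 11.33 on all arrays. It fell by 0.17 ± 0.052 in the late step (limma adjusted p = 0.00826, lost without 24 h array D or 72 h array A). The other probe set of Wdr5, with a mean of 9.37 over all arrays, was called lower in both steps, at -0.35 and -0.40. Menin, encoded by Men1, tethers the Kmt2a and Kmt2b complexes to chromatin. It was called in neither step, at 0.15 ± 0.063 (limma adjusted p = 0.0601) and -0.029 ± 0.063 (adjusted p = 0.747), and its difference of 0.33 between 72 h and 8 h was 0.10 and not called with the array set as a term. Its other probe sets gave no such rise. That with a mean of 8.16 over all arrays was called lower in the late step, at -0.22. That with a mean of 8.10 was called lower in the early step, at -0.20, and at 72 h against 8 h, at -0.25.

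Of the methyltransferases, Kmt2a alone was called in a step. It measured 9.01, 9.08 and 9.27 at 8 h and 9.33, 9.44 and 9.22 at 24 h (A to C), which overlap, and the difference of 0.21 ± 0.10 was not called (limma adjusted p = 0.105). In the late step it went from 9.62, 9.46 and 9.51 to 9.75, 9.84 and 9.76, a rise of 0.25 ± 0.10 (limma adjusted p = 0.0428). That call was lost in 5 of 6 leave-one-out fits, all but the one without 24 h array D. Against 8 h, Kmt2a at 72 h was 0.66 ± 0.12 higher (limma adjusted p = 5.4e-05), and 0.41 higher and still called with the array set as a term. Its relative Kmt2b and the enhancer enzymes Kmt2c and Kmt2d were called in neither step, and over all arrays Kmt2b lay between 10.32 and 10.71, Kmt2c between 9.44 and 10.38 and Kmt2d between 10.29 and 11.03. Against 8 h at 72 h, Kmt2b was 0.15 lower, Kmt2c 0.26 lower and Kmt2d 0.40 higher, and all 3 calls were lost with the array set as a term. The means of Kmt2c were lowest at 48 h, at 9.51, against 10.12 at 8 h and 9.86 at 72 h.

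The demethylases Kdm6a and Kdm6b remove the PRC2 mark. Kdm6a, which works with Kmt2c and Kmt2d, measured 10.26, 10.14 and 10.30 at 8 h, 9.92, 9.84 and 9.75 at 16 h and 9.96, 10.31 and 9.96 at 24 h (A to C). It was lower at 16 h by 0.40 ± 0.10 (limma adjusted p = 0.00221) and not called at 24 h (adjusted p = 0.227). In set 2 it fell from 10.31, 10.26 and 10.42 at 24 h to 10.01, 9.97 and 10.06 at 72 h, by 0.32 ± 0.10 (limma adjusted p = 0.0109), a call lost without 24 h array F. Kdm6b was called in neither step, at -0.015 ± 0.083 (limma adjusted p = 0.899) and 0.031 ± 0.083 (adjusted p = 0.795).

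Asxl1 pairs with the deubiquitinase Bap1, which removes the ubiquitin that PRC1 places. It measured 10.56 on each of the 3 arrays at 8 h and 10.41, 10.38 and 10.34 at 24 h (A to C). The set 2 arrays gave 10.65, 10.65 and 10.77 at 24 h and 10.40, 10.23 and 10.35 at 72 h. The later arrays were lower in both steps, by 0.19 ± 0.063 (limma adjusted p = 0.0209, lost without array C of either time) and by 0.36 ± 0.063 (adjusted p = 3.13e-05). Its 2 other probe sets fell in the early step, and in the late step 1 fell and 1 rose. At 24 h the set 2 arrays stood 0.32 ± 0.063 above those of set 1 (limma adjusted p = 0.000318).

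**Figure D4:**
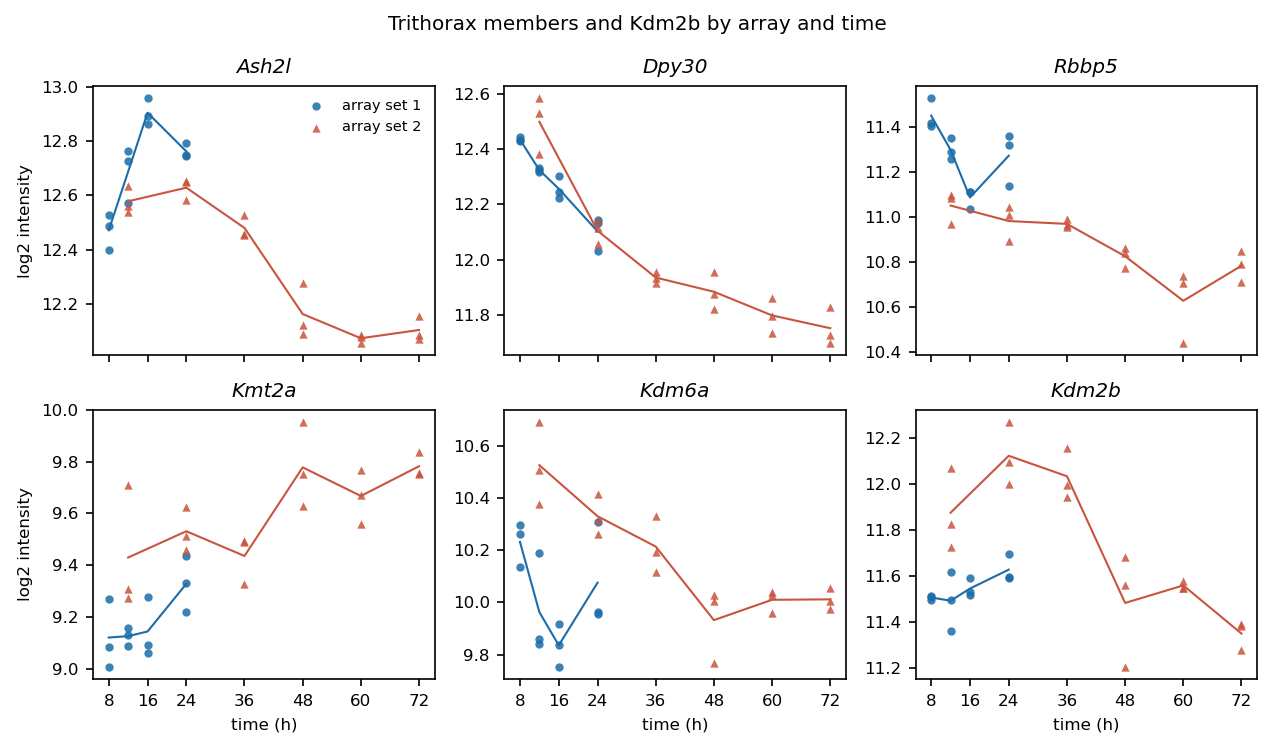
Log2 intensity of Ash2l, Dpy30, Rbbp5, Kmt2a, Kdm6a and the PRC1 subunit Kdm2b on each array (points) against time in hours, with circles for array set 1 and triangles for array set 2; lines join the means of each set. Ash2l stood highest at 16 h and Kdm2b at 24 h in set 2, at means of 12.90 and 12.12, and Dpy30 fell throughout set 2, to 11.75 at 72 h.

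The gap between the array sets at one time was as large as many of these changes. At 12 h, arrays D to F differed from A to C in 20 of the 41 genes, 11 higher and 9 lower, where 39% of all genes were called, 17.2% higher and 21.7% lower. At 24 h they differed in 21, 9 higher and 12 lower, where 33.8% of all genes were called, 13.3% higher and 20.4% lower. The median size of the difference over the set was 0.19 at 12 h and 0.18 at 24 h. At both times 12 genes were called in the same direction: Eed, Cbx2, Phc2, Kdm2b and Men1 were higher in D to F, and Ezh1, Ring1, Pcgf1, Pcgf3, Pcgf5, Cbx6 and Rbbp5 lower. The share of all genes called in the same direction at both times was not counted. The 12 genes are therefore listed only, and are no result about the set. The widest gap at 12 h was that of Ezh1, at -0.73 ± 0.094 (limma adjusted p = 1.15e-06), followed by that of Kdm6b, at -0.62. The widest at 24 h was that of Bmi1, at -0.58 ± 0.10 (limma adjusted p = 7.47e-05). Bmi1 was the only gene called in opposite directions, being 0.39 higher in D to F at 12 h. The labels give these letters no meaning beyond the replicate, and what sets the arrays apart was not tested.

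**Figure D5:**
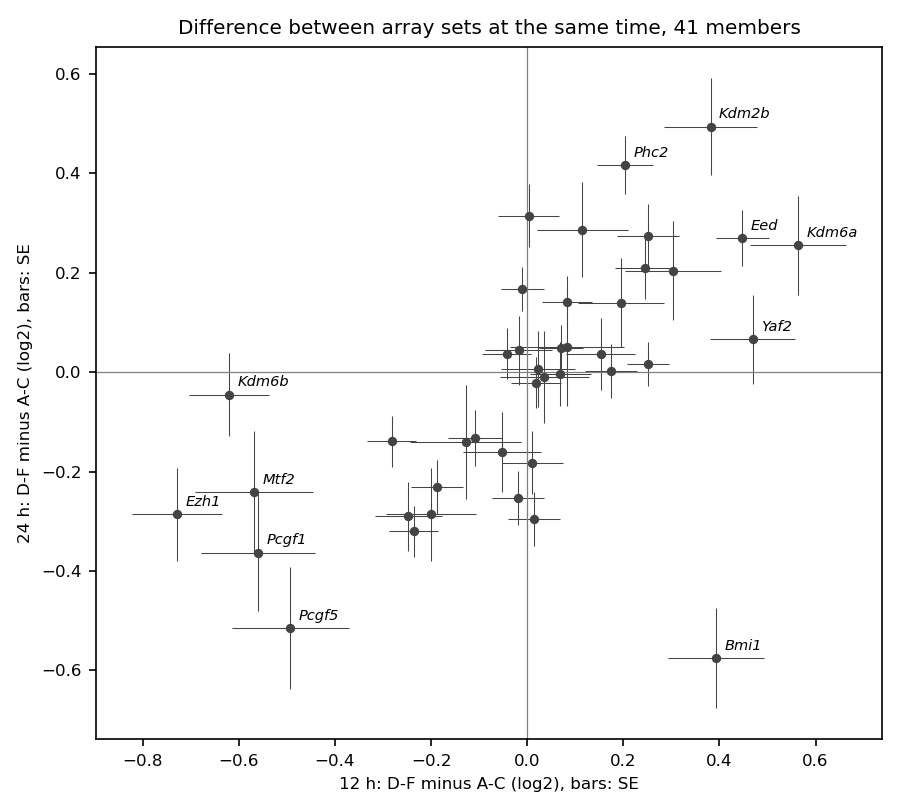
Difference between arrays D to F and A to C (log2; bars: SE) at 12 h (horizontal axis) and at 24 h (vertical axis) for each of the 41 genes, with 0 meaning no gap between the sets. The 12 genes called in the same direction at both times lie in the lower left or upper right, and Bmi1, at 0.39 and -0.58, lies apart in the lower right.

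Genes outside the set that are tied to these complexes were counted from lists of known partners and related genes. Of 22 measured partners of PRC1 and PRC2, 8 rose and 2 fell in the early step and 10 rose and 7 fell in the late step; the 39.3% and 46.5% of all genes called are the background here too. Lcor, a PRC2 partner, rose by 0.56 ± 0.082 and then by 1.24 ± 0.082 (limma adjusted p = 5.72e-06 and 7.55e-12), and Auts2, a partner of variant PRC1, rose by 1.20 ± 0.12 in the late step (adjusted p = 1.56e-08). Epop, a PRC2 partner of embryonic stem cells, fell by 0.64 ± 0.093 in the late step (limma adjusted p = 3.37e-06). Of 10 measured genes listed as related to the trithorax methyltransferases, not all of them subunits of such complexes, 3 rose and 4 fell early and 2 rose and 5 fell late. Kmt2e, a gene of that list, rose in both steps, by 0.90 ± 0.092 and 0.65 ± 0.092 (limma adjusted p = 3.28e-08 and 2.12e-06). Among 8 other measured genes listed with the Bap1 deubiquitinase, Asxl2 and Asxl3 included, 1 rose and 3 fell early and 1 rose and 5 fell late. Asxl3 rose by 0.70 ± 0.18 early (limma adjusted p = 0.00305), and Asxl2 fell by 0.35 ± 0.075 late (adjusted p = 0.000397). A list of 24 remodelling genes held those of BAF, which opposes Polycomb, together with Chd7 and Chd8. Of these 24, 10 rose and 5 fell early and 6 rose and 4 fell late. Smarca2, 1 of the 2 alternative motors of the BAF complex, rose by 0.88 ± 0.13 and by 1.85 ± 0.13 (limma adjusted p = 4.87e-06 and 1.39e-11).

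The Hox genes, classical targets of both systems, were counted as a readout outside the set. Of 33 measured, 24 rose and 0 fell in the early step, with a median change of 0.82, where 23.5% of all genes were called higher and 15.8% lower. In the late step 15 rose and 8 fell, with a median of 0.24, where 21.7% of all genes were called higher and 24.8% lower. In limma at an unadjusted p below 0.05, 0 of them were lower in the early step. Hoxb6 had the largest early rise, of 3.59 ± 0.14 (limma adjusted p = 2.13e-15), and Hoxc10 the largest late one, of 4.54 ± 0.22 (adjusted p = 3.82e-14).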

How the data were processed

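RNA of 30 KH2 samples was measured on Affymetrix arrays. The authors deposited 1 table of log2 values for 45101 probe sets; its background correction and normalization are not given in the sources used here, and the values were used as deposited. The submitters' processing notes name limma 3.8.3. Control probe sets (64) and probe sets with no symbol (9160) or several (932) were left out, and of the other 34945 the one with the highest mean per gene was kept, giving 18193 genes. Groups were taken from the time in each label. With limma 3.58.1 in R 4.3.3, lmFit and eBayes were fitted once with 8 time groups and once with 10 groups (time by array set), with Benjamini-Hochberg adjustment over all 18193 genes and a threshold of 0.05, and the fit was tested on simulated data. The array sets were split at the widest gap of a spike-in difference (BioDn minus BioC). Genes described in full were the called ones whose groups did not overlap, and of each other list at most the 4 largest called changes. The genes and lists were chosen with earlier results of these data known. Replicate letters did not pair the arrays. Alternatives tried were centring, quantile normalisation, a filter below the 30th percentile, other choices of probe set, another variance prior, fewer arrays, a replicate block and the array set as a term. The number of arrays, 3 to 6 per group, limits the precision.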

Additional observations from a re-analysis of the deposited data

Results flagged for a closer look

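In 9 of the 41 genes the change from 12 h to 24 h differed between arrays D to F and arrays A to C by an interaction term in limma, where 19.1% of all genes did. Bmi1 rose by 1.63 in A to C and by 0.66 in D to F, a difference of -0.97 ± 0.14 (adjusted p = 3.34e-05). Yaf2 rose by 0.70 in A to C and went up by 0.30 in D to F, a difference of -0.40 ± 0.13 (limma adjusted p = 0.0255). For Pcgf6 the changes were -0.034 and -0.34, which differ by -0.31 ± 0.077 (limma adjusted p = 0.00549). For Rbbp7 they were 0.21 and -0.025, which differ by -0.24 ± 0.063 (limma adjusted p = 0.00909), and for Rnf2 0.21 and -0.025, which differ by -0.23 ± 0.076 (adjusted p = 0.0332). In the opposite direction, Kdm6b went down by 0.22 in A to C and up by 0.36 in D to F, a difference of 0.58 ± 0.12 (limma adjusted p = 0.00104). Ezh1 changed by -0.37 and 0.078, a difference of 0.44 ± 0.13 (limma adjusted p = 0.0198). Asxl1 changed by -0.20 and 0.11, a difference of 0.31 ± 0.089 (limma adjusted p = 0.0144), and Ezh2 by -0.19 and -0.015, a difference of 0.18 ± 0.063 (adjusted p = 0.049). With the probe sets of each gene averaged, the difference was lost for Asxl1 (0.03), Pcgf6 (-0.20), Yaf2 (-0.20) and Rnf2 (-0.13). It was lost without probe sets of shared types for Ezh1 (0.27) and Ezh2 (0.18), with quantile normalisation for Rnf2 (-0.21), and with centring (0.16) or the replicate block (0.18) for Ezh2. Leaving out 1 array, it was lost without 12 h array E or 24 h array E for Ezh1, and without 12 h array A, B or D or 24 h array B or D for Yaf2. For Rnf2 only 4 of 12 fits that left out 1 array kept it, those without 12 h array A or F or 24 h array A or E, and for Ezh2 only 3, those without 12 h array A or F or 24 h array F.

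Of 82 groups of 6 arrays, 3 held an array far from the others by Dixon's criterion. Chance meets it in about 1 in 20 groups where all arrays come from the same distribution. Each group here joins arrays A to C and D to F, which differ for many genes, so 3 of 82 cannot be set against that rate. All 3 lay at 12 h: array A of Suz12 at 11.91, with the nearest other array at 11.68, array D of Phf19 at 7.26, with the nearest at 7.06, and array E of Kmt2a at 9.71, with the nearest at 9.31.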

How the results depend on the processing

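Total counts of called genes stayed within 1.5 times the reported ones under every alternative run, except at 12 h and without 1 array at 24 h. The 12 h count of 2 became 1 with quantile normalisation, with a gene's probe sets averaged or without probe sets of shared types, and 4 with the array set as a term. With only the arrays compared limma called 0 of the 41, with 12 at an unadjusted p below 0.05. Leaving out 1 array gave 0 to 3 called genes at 12 h (0 without 8 h array C, with 7 at an unadjusted p below 0.05), 13 to 21 at 24 h (13 without 8 h array B), 24 to 28 at 72 h, 15 to 19 in the early step, 23 to 26 in the late step, 6 to 11 for the interaction and 33 to 34 in the F test. A replicate block on the array letter gave 5 at 12 h, 20 at 24 h, 30 at 72 h, 22 in the early step, 20 in the late step, 8 for the interaction and 37 in the F test. The late count of 20 cannot be read as an effect of the block, because the 2 groups of that step share no letter. The letters do not pair arrays: over 87 pairs of the same letter the median correlation of deviations from the group means was 0.006, with 15 over 0.1, and 10 of 24 arrays lay closest to one of their own letter.

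Directions turned for these genes. Averaged probe sets gave -0.44 for Aebp2 and -0.26 for Rnf2 at 72 h against 8 h, -0.21 for Rnf2 and -0.027 for Pcgf3 in the early step, and -0.054 for Aebp2 and -0.014 for Pcgf3 in the late step, where other probe sets of the gene enter. Ezh1 at 12 h was 0.34 above 8 h with arrays A to C only. At 72 h against 8 h, Cbx6 gave 0.042 with the array set as a term and 0.085 and 0 as the sum of steps joined at 24 h and at 12 h, and Kdm6b gave 0.59 joined at 12 h. With the array set as a term, the 72 h calls of Ezh1, Mtf2, Kmt2b, Kmt2c, Kmt2d and Men1 were lost. Calls were gained there for Ring1, Rnf2, Pcgf5, Kdm2b and Kdm6a, and the cause was not tested. Quantile normalisation ended the early calls of Phc3, Pcgf1, Mtf2 and Rbbp5 and the late calls of Phf1, Ring1, Pcgf3 and Kmt2a. Averaged probe sets ended the early calls of Eed, Pcgf5, Cbx8 and Ash2l, the late calls of Eed and Rnf2 and the 72 h calls of Pcgf2, Pcgf3, Kmt2c, Kmt2d and Men1. Averaging also moved, without ending the call, the early changes of Pcgf2 (-0.24), Asxl1 (-0.36) and Aebp2 (-0.45) and the late changes of Phc3 (0.27), Asxl1 (-0.16), Pcgf6 (-0.37), Wdr5 (-0.29) and Ezh1 (-0.30). Only the arrays compared ended the early calls of Rbbp7, Cbx6 and Rbbp5 and the late calls of Phf1, Aebp2, Pcgf3 and Wdr5. The replicate block ended the early call of Rbbp5. In the late step it ended those of Eed, Suz12, Phf1, Aebp2, Ring1, Cbx8, Kmt2a and Rbbp5. There the 24 h arrays carry letters D to F and the 72 h arrays A to C, so letter and time cannot be separated. The fit set the 72 h level of letter A against the 24 h level of letter F, and these late losses say nothing about pairing. The sums of steps, the alternatives for the interaction and the arrays left out of the F test were chosen after seeing the data.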

Other observations

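Of 18 measured enzymes of other histone and DNA methylation pathways, 4 rose and 7 fell in the early step, where 23.5% of all genes were called higher and 15.8% lower. In the late step 1 rose and 13 fell, where 21.7% of all genes were called higher and 24.8% lower. Dnmt3b, a de novo DNA methyltransferase, fell by 0.87 ± 0.067 and then by 1.06 ± 0.067 (limma adjusted p = 3.73e-10 and 3.33e-12). Dnmt3l, its cofactor without catalytic activity, fell by 0.91 ± 0.15 and 1.11 ± 0.15 (limma adjusted p = 3.15e-05 and 1.35e-06). Tet1, which oxidises methylated cytosine, fell by 0.78 ± 0.088 and 1.06 ± 0.088 (limma adjusted p = 1.66e-07 and 4.12e-10), and Kdm4c, a histone demethylase, had the largest late fall of the list, at 1.15 ± 0.065 (adjusted p = 5.29e-13). The embryonic stem cell markers fell over the same steps, and their part in these falls was not tested.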
